A study of Mus musculus with 2 samples.

Results

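The 10 genes described here encode regulators of alternative splicing in neurons, measured in the left cerebral cortex of 2 mice: Rbfox1, Rbfox2, Rbfox3, Nova1, Nova2, Ptbp1, Ptbp2, Celf4, Elavl4 and Srrm4. They were taken by symbol from a list of names, and are 10 of the 55536 genes in the deposited gene table. Both mice were males of 8 to 10 months from a cross of the 5xFAD line with the CAST strain, supplied by The Jackson Laboratory, and they form a single group of biological replicates 2 and 1. The 5xFAD line carries human transgenes for mutated amyloid precursor protein and presenilin under the Thy1 promoter, which drives expression in neurons, and CAST is a wild-derived inbred strain. The samples carry separate biosample labels and a single donor label for the strain. From each, 300 ng of total RNA was depleted of ribosomal RNA, given ERCC spike-in RNA, a set of synthetic control RNAs, and made into a directional library. Animals that lack the transgenes are not analysed here. What can be described is levels, transcript make-up and the spread between 2 animals, and no test between groups or p-value was possible.

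Alternative splicing joins different exons of a gene into different messenger RNAs, and neurons use it more than most cells. Rbfox proteins bind UGCAUG, Nova proteins bind clusters of YCAY, and Elavl and Celf proteins bind U-rich and GU-rich RNA, and each promotes or blocks an exon according to where it binds. Ptbp1 is the polypyrimidine tract binding protein of non-neuronal cells and progenitors; as neurons form, its neuronal relative Ptbp2 takes its place and many neuronal exons are released. Srrm4 promotes very short neuronal exons, or microexons. Several of these genes are themselves spliced differently in neurons, and sequences of such exons are shown first because the transcript shares below turn on them.

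In Ptbp1 and Ptbp2, an exon of 34 bases decides whether a full-length protein is made. Ptbp1 is known to cause its skipping in both transcripts, which shifts the reading frame and marks the RNA for nonsense-mediated decay. The sequences below are from GENCODE M21 transcripts on the mm10 assembly, read 5′ to 3′ on the strand of the gene, with the exon in capitals and 15 bases of the neighbouring coding exons in lower case. The Ptbp2 exon lies at chr3:119724612-119724645 on the minus strand, and the Ptbp1 exon at chr10:79862014-79862047 on the plus strand. They match at 26 of 34 bases (76.5%).
Ptbp2: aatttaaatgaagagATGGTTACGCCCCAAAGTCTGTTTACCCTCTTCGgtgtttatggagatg
Ptbp1: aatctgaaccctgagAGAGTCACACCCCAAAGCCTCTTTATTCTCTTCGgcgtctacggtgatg

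The Rbfox genes hold an exon of 40 bases near the 3′ end of the coding sequence, known as the brain form, and in Rbfox1 and Rbfox2 an alternative exon of 43 bases, known as the muscle form. They give the proteins different C-terminal parts. The 40-base exons lie at chr16:7363865-7363904 (plus strand) in Rbfox1, at chr15:77094451-77094490 (minus strand) in Rbfox2 and at chr11:118496351-118496390 (minus strand) in Rbfox3. Rbfox1 matches each of the others at 34 of 40 bases (85%), and Rbfox2 matches Rbfox3 at 31 of 40 (77.5%).
Rbfox1 40-base exon: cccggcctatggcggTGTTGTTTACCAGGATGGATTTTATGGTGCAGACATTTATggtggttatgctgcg
Rbfox2 40-base exon: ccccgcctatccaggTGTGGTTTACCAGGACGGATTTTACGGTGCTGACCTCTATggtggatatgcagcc
Rbfox3 40-base exon: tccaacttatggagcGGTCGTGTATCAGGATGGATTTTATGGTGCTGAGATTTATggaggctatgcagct
The 43-base exons lie at chr16:7369801-7369843 in Rbfox1 and chr15:77091812-77091854 in Rbfox2, and match at 27 of 43 bases (62.8%).
Rbfox1 43-base exon: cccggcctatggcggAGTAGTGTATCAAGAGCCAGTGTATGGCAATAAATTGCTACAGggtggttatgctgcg
Rbfox2 43-base exon: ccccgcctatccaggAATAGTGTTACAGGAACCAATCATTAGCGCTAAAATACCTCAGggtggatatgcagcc

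The libraries held 32380330 reads on genes in replicate 2 and 33925221 in replicate 1, of which the 10 genes took 49469 and 50526 (0.153% and 0.149%). Single genes held 902 to 13292 reads per library, so counting error was small for all of them. Markers of the labelled tissue were present: the neuronal genes Stmn2, Syt1, Slc17a7, Gad1 and Gad2 had summed levels of 1389 TPM (a share of all transcripts that corrects for their length) in replicate 2 and 1246 TPM in replicate 1. Pcp2 and Gabra6, genes of cerebellar neurons, were at 0 reads in both. The libraries differed in other regions: all 5 choroid plexus markers were at least 2-fold higher in replicate 1, with summed levels of 106 TPM in replicate 2 and 550.3 TPM in replicate 1. Of 5 markers of thalamus and hypothalamus, Prkcd and Hcrt were likewise at least 2-fold lower in replicate 2, with 274 and 0 reads against 858 and 12 in replicate 1. Tcf7l2 and Calb2 were lower in replicate 2 by less than 2-fold, with 293 and 298 reads against 513 and 557. Lef1 was nearly level, with 230 reads in replicate 2 and 235 in replicate 1. Of 5 markers of cerebellum and olfactory bulb, only Doc2g reached 1 TPM, and Eomes had 4 reads in replicate 2 and 31 in replicate 1. The 5 striatal markers were present, with summed levels of 369 TPM in replicate 2 and 315 TPM in replicate 1. Whether these differences bear on any of the 10 genes was not tested.

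All 10 genes were expressed, reaching 1 TPM or more in each animal. Their median level was 44.3 TPM in replicate 2 and 41.6 TPM in replicate 1, and 43.0 TPM for the means of the animals, beside 14.99 TPM for the 13070 nuclear protein-coding genes at 1 TPM or more and 3.90 TPM for all 22015. The highest mean was 20.2-fold above the lowest. TPM divides reads by transcript length, so these levels can be compared between genes. They are levels of bulk tissue, in which fewer cells of a type and less RNA per cell cannot be told apart.

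**Figure D1:**
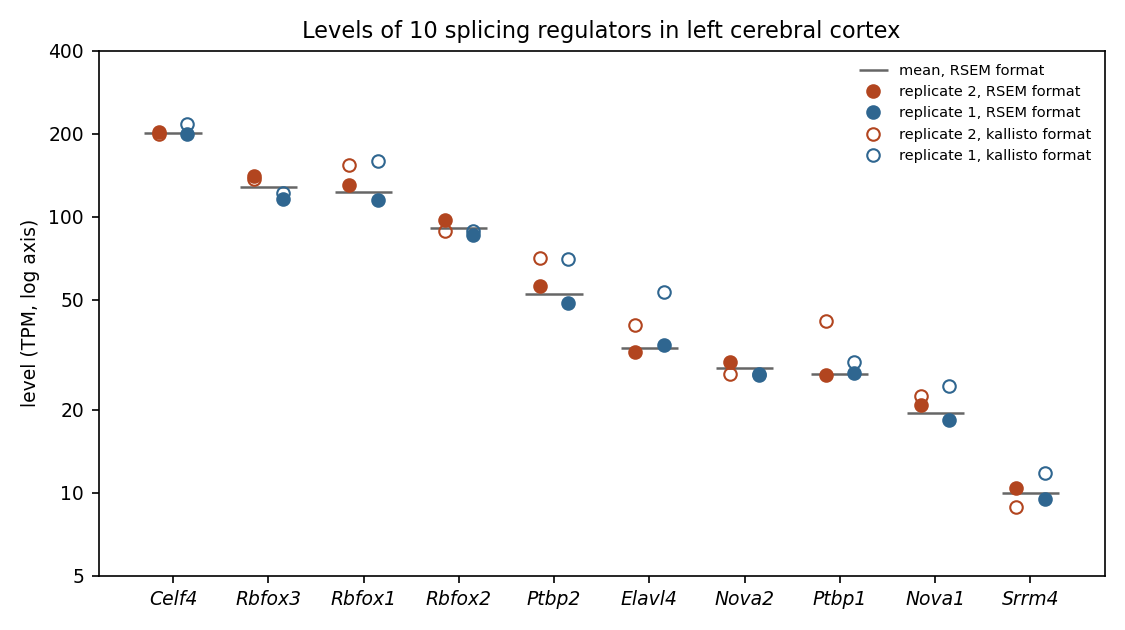
Level of each of the 10 genes in TPM (log axis), ordered by mean, in replicate 2 (left) and replicate 1 (right). Filled points are from the RSEM-format gene table with their mean as a bar, open points from the kallisto-format table; Celf4 leads at 201 TPM and Srrm4 is lowest at 9.97 TPM.

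The 3 Rbfox genes were among the highest. Rbfox3 encodes the antigen NeuN, the standard marker of neuronal nuclei (ENSMUSG00000025576.17, chr11:118489762-118911597, minus strand), and had 141 TPM in replicate 2 and 116 TPM in replicate 1. Rbfox1, the family member of neurons, heart and muscle (ENSMUSG00000008658.16, chr16:5885355-7411526, plus strand), had 129.9 TPM in replicate 2 and 115 TPM in replicate 1. Rbfox2, which is also expressed outside neurons (ENSMUSG00000033565.18, chr15:77078990-77307004, minus strand), had 97.0 TPM in replicate 2 and 85.8 TPM in replicate 1. The values of Rbfox3 and Rbfox1 overlapped between genes, and both lay above Rbfox2 in each animal. Against Rbfox2, the log2 ratio of levels was 0.49 ± 0.08 for Rbfox3 and 0.43 ± 0.01 for Rbfox1 (SD, n = 2). The order of Rbfox3 and Rbfox1 depended on the table: by kallisto their mean levels were 129.8 and 156 TPM, and the ratio of Rbfox1 over Rbfox2 was 0.82, close to the 0.83 found with the longest coding transcripts. Among 22015 coding genes these means reached percentiles of 97.4, 97.2 and 95.8 for Rbfox3, Rbfox1 and Rbfox2.

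The Nova genes encode neuronal proteins first found as targets of antibodies in a paraneoplastic motor disorder. Nova2, the form most used in the forebrain (ENSMUSG00000030411.16, chr7:18925888-18965319, plus strand), had 29.9 TPM in replicate 2 and 26.6 TPM in replicate 1. Nova1 (ENSMUSG00000021047.7, chr12:46694517-46818929, minus strand) had 20.8 TPM in replicate 2 and 18.3 TPM in replicate 1. Nova2 was thus the higher of the pair in both animals, by 0.53 ± 0.01 on the log2 scale (SD, n = 2). The size of that gap depended on the processing: it was 1.24 with the longest coding transcript of each gene, a choice made after seeing the data, and 0.20 in the kallisto-format table.

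Ptbp2 stood above Ptbp1. Ptbp2 (ENSMUSG00000028134.11, chr3:119718742-119784466, minus strand) had 56.3 TPM in replicate 2 and 48.8 TPM in replicate 1, and Ptbp1 (ENSMUSG00000006498.16, chr10:79854427-79864771, plus strand) had 26.6 and 27.2 TPM. The log2 ratio of Ptbp2 over Ptbp1 was 1.08 in replicate 2 and 0.84 in replicate 1, with a mean of 0.96 ± 0.17 (SD, n = 2). By kallisto it was 0.76 in replicate 2 and 1.24 in replicate 1, so the animal with the higher ratio depended on the processing. Reads also put Ptbp2 above Ptbp1, with 2780 and 2754 on Ptbp2 and 913 and 902 on Ptbp1. The level of Ptbp1 moved with the processing, at 41.9 TPM in replicate 2 and 29.7 TPM in replicate 1 in the kallisto-format table and a mean of 17.7 with the longest coding transcript as its length. Of its exonic bases, 5.30% lie opposite Plppr3, a neuronal gene at 22.9 and 22.0 TPM, and 4.75% of its 50-base words recur in 2 other annotated genes; the strand setting of the counting is not given in the sources used here.

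Celf4 was the highest of the 10, and Srrm4 the lowest. Celf4, a neuronal protein of the CUGBP family whose loss causes seizures in mice (ENSMUSG00000024268.16, chr18:25477632-25754157, minus strand), had 203 TPM in replicate 2 and 199.5 TPM in replicate 1, a percentile of 98.7 among coding genes. Elavl4, the neuronal Hu protein HuD, which also stabilizes messenger RNAs (ENSMUSG00000028546.17, chr4:110203722-110351909, minus strand), had 32.4 TPM in replicate 2 and 34.4 TPM in replicate 1. Srrm4 (ENSMUSG00000063919.11, chr5:116439275-116591817, minus strand) had 10.4 TPM in replicate 2 and 9.50 TPM in replicate 1, a percentile of 62.9. In descending order of mean level the genes were Celf4, Rbfox3, Rbfox1, Rbfox2, Ptbp2, Elavl4, Nova2, Ptbp1, Nova1 and Srrm4. Neighbours in this order had values that overlapped between genes only for Rbfox3 with Rbfox1 and for Nova2 with Ptbp1.

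Within their families the members were not always the most abundant form. The other 12 genes of the Ptbp, Celf, Elavl and Srrm families were all at 1 TPM or more, with a median level of 56.8 TPM. Celf4 exceeded Celf1, the broadly expressed relative, by 1.90 ± 0.07 on the log2 scale, and Celf2 followed it at 169 TPM in replicate 2 and 146 TPM in replicate 1. Elavl4 and Elavl1, the HuR protein found in all cells, had log2 ratios of 0.10 in replicate 2 and 0.34 in replicate 1, and 0.46 and 0.78 by kallisto. Srrm4 lay below Srrm3, its relative that also promotes microexons, by a log2 ratio of -1.63 in replicate 2 and -1.40 in replicate 1; with the longest coding transcripts as lengths the mean was -0.76 in place of -1.51. Srrm2, a general component of the splicing machinery, was the highest of these relatives at 234 TPM in replicate 2 and 184 TPM in replicate 1, and Celf5 the third at 100.3 and 89.8 TPM.

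**Figure D2:**
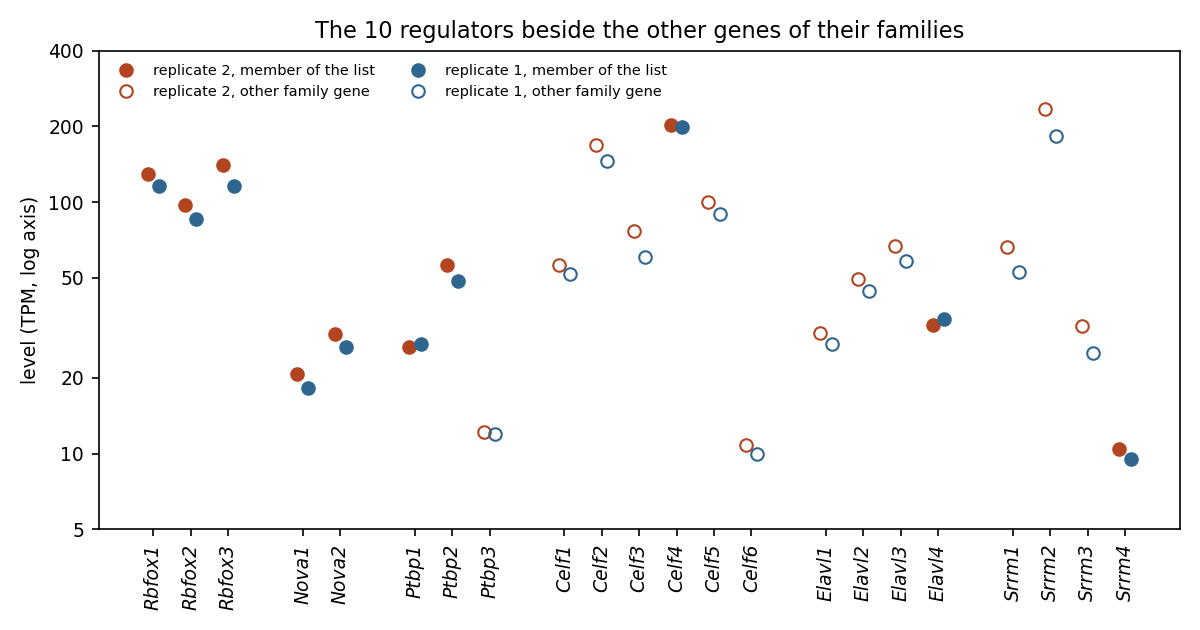
Levels in TPM (log axis) of the 10 genes (filled) and the other 12 genes of their families (open), in replicate 2 (left) and replicate 1 (right). Srrm4 and Nova1 are the lowest in their families, and Celf4 and Ptbp2 are the highest in theirs.

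Splicing regulators known for roles shared with other tissues were a mixed list, with 18 of 21 genes at 1 TPM or more and a median level of 23.8 TPM. The highest were Matr3, which encodes the nuclear matrix protein matrin 3, at 268 TPM in replicate 2 and 246 TPM in replicate 1, Qk, the quaking protein of glia, at 164 and 155 TPM, and Khdrbs3, a STAR protein, at 129.8 and 129.7 TPM. Esrp1 and Esrp2, the epithelial regulators, had 1 and 3 reads in replicate 2 and 3 and 1 reads in replicate 1. Mbnl3 had 4 reads in replicate 2 and 5 in replicate 1.

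The 10 genes differed little between the animals. Ratios of replicate 2 over replicate 1 were taken from reads scaled by TMM (trimmed mean of M-values) library sizes. Their log2 values ran from -0.12 for Celf4 to 0.14 for Rbfox3 with a median of 0.04, beside a median of 0.00 and a median absolute value of 0.13 over 19484 genes tested. None of the 10 was called, that is at least 2-fold different with a counting interval of 0.1% error that excluded equal levels, where 1.22% of all tested genes were (0.57% higher and 0.647% lower in replicate 2). For 2 of the 10 that interval excluded equal levels at any fold, beside 8.79% of all tested genes, 4.33% higher and 4.46% lower in replicate 2. The depths are not alike: tested genes needed only 10 reads in 1 library, while these 10 held 902 to 13292. More reads narrow the interval, so no excess can be read from that comparison. Ratios of genes with few reads also scatter more. The median absolute value and the share called over all tested genes therefore do not show these 10 to be steadier than genes of like depth. Rbfox3 was higher in replicate 2, with 7162 reads in replicate 2 and 6653 in replicate 1 and a log2 ratio of 0.14 (95% counting interval 0.09 to 0.19). Celf4 was lower in replicate 2, with 11902 reads in replicate 2 and 13292 in replicate 1 and a log2 ratio of -0.12 (-0.16 to -0.09).

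**Figure D3:**
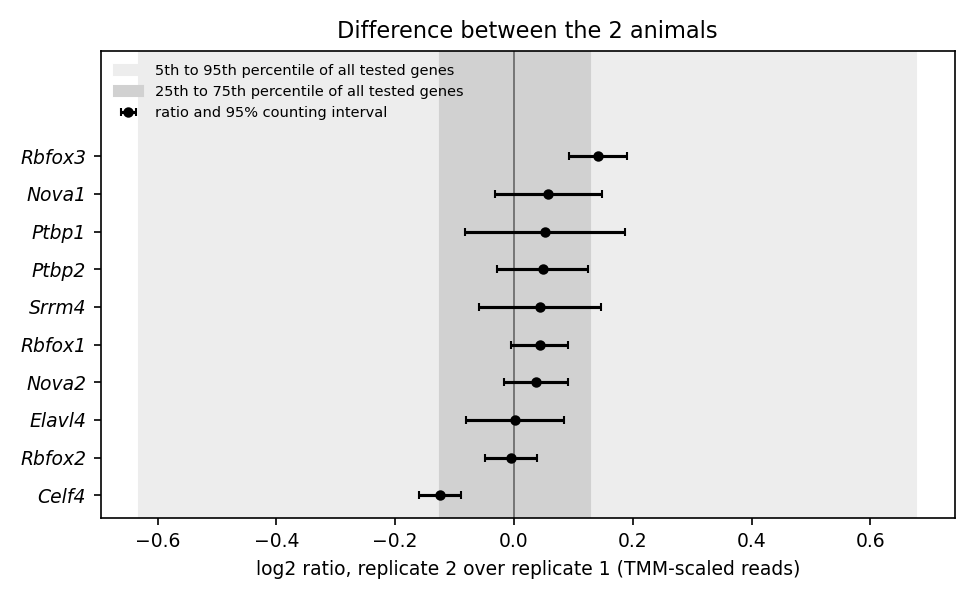
Log2 ratio of replicate 2 over replicate 1 for each gene with its 95% counting interval, over grey bands that hold the central part of all 19484 tested genes. Rbfox3 at 0.14 and Celf4 at -0.12 are the genes whose intervals lie apart from 0, and all 10 lie well inside the wider band. The bands include genes of few reads, whose ratios scatter more.

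The intervals cover counting error only, and each side is 1 animal. When libraries were scaled by their spike-in totals, the median of all tested genes shifted by 0.08. The ratio of Celf4 became -0.04 (95% counting interval -0.08 to -0.01), and its interval of 0.1% error no longer excluded equal levels. With this scaling 5 of the 10 genes had unequal reads beside 13.7% of all, with the same limit of read depth. Markers of glia were, like Celf4, lower in replicate 2 relative to all genes: 4 of 4 astrocyte genes, 4 of 4 oligodendrocyte genes and 4 of 4 microglial genes had log2 ratios below 0, with medians of -0.15, -0.12 and -0.16. The summed levels of the astrocyte genes were 534 TPM in replicate 2 and 543 TPM in replicate 1, those of the oligodendrocyte genes 1327 and 1343 TPM, and those of the microglial genes 132 and 144 TPM. The 5 neuronal markers had a median of -0.00 and a range of -0.11 to 0.06, the 4 endothelial markers a median of -0.21 and the 5 striatal markers one of 0.05. Their part in the result was not tested.

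The annotation gives these genes 96 transcripts, of which 43 are complete coding transcripts, and 5 genes had a single transcript with over 50% of their TPM. Srrm4-201 took 80.1% of Srrm4 in replicate 2 and 83.1% in replicate 1, Rbfox1-201 took 62.0% and 62.5% of Rbfox1, Nova1-201 took 58.4% and 58.2% of Nova1, Celf4-202 took 50.1% and 52.5% of Celf4, and Ptbp2-201 took 51.2% and 52.0% of Ptbp2. By kallisto the mean shares of these transcripts were 75.1% in Srrm4, 51.1% in Rbfox1, 44.8% in Nova1, 44.1% in Celf4 and 31.9% in Ptbp2. Rbfox2-203 led its gene with 44.1% in replicate 2 and 46.8% in replicate 1. In Rbfox3 the TPM was spread over 3 complete transcripts, with 29.8% and 32.6% for Rbfox3-204, 30.2% and 31.7% for Rbfox3-205 and 27.0% and 25.7% for Rbfox3-203. Elavl4-203 led Elavl4 with 27.3% and 27.5%. Both transcripts of Nova2 have the same 8372 bases and differ only in the annotated coding stretch, so the files give each 50% and cannot tell them apart. The kallisto-format table had the same leading transcript for 7 of the 10 genes, the exceptions being Elavl4, Ptbp1 and Rbfox3. The 7 include Nova2, whose transcripts are tied and give no leader.

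Ptbp1 had the lowest share of complete coding transcripts among the 10. They held 31.9% of its TPM in replicate 2 and 30.1% in replicate 1, transcripts with a retained intron 27.9% and 29.0%, and other noncoding transcripts 13.4% and 16.9%. By reads, which weigh long transcripts more, complete coding transcripts held 57.8% and 60.3% of Ptbp1 and retained introns 26.6% and 27.8%. By kallisto the TPM shares of Ptbp1 were less alike between animals: complete coding transcripts held 19.3% and 32.1%, and retained introns 13.2% and 32.1%. Other noncoding transcripts then held 3.17% and 1.51%, and coding transcripts of unfound start or end 58.3% and 33.6%. In Ptbp2, complete coding transcripts held 62.1% and 62.2% of the TPM, and transcripts marked for nonsense-mediated decay 19.8% and 20.95%. By reads the share marked for decay was only 4.25% and 5.23%. In the other 8 genes complete coding transcripts held from 58.3% (Nova1) to 100% (Nova2) of the TPM on average. Nova2 has only complete coding transcripts in the annotation, so its share was fixed in advance. Such shares rest on the assignment of reads among overlapping transcripts, many of them short.

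**Figure D4:**
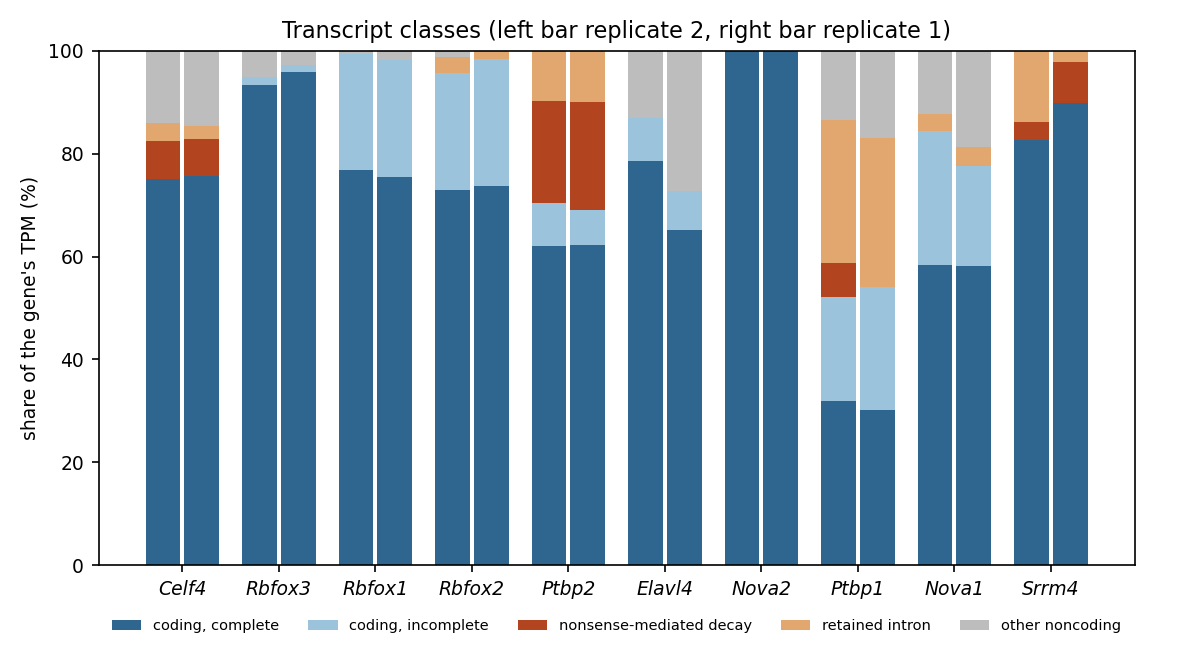
Share of each gene's TPM (%, stacked to 100) by annotated transcript class, with replicate 2 as the left bar and replicate 1 as the right bar of each pair. Shares are from the RSEM-format table. Nova2 has only complete coding transcripts in the annotation, Ptbp2 holds about 20.4% transcripts marked for decay, and Ptbp1 holds 28.5% with retained introns.

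Exon inclusion was taken as the TPM of transcripts that hold an internal exon, over the TPM of those that hold or skip it. Of 118 internal exons of the 10 genes, 32 had a transcript that skips them. In 9 genes 17 of these reached 1 TPM in both animals and an inclusion between 5 and 95% in at least 1. Of the 17, 12 differed by less than 5 percentage points between the animals, and 13 lay within 10 points of the kallisto-format table.

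The Ptbp2 34-base exon was included at 75.4% in replicate 2 and 73.9% in replicate 1 (74.7 ± 1.06%, SD, n = 2). Transcripts with the exon held 2185 reads in replicate 2 and 2119 in replicate 1, and those without it 118 and 144. Most of the skipped share came from Ptbp2-206, a transcript of 576 bases marked for decay, with 118 and 111 reads. With transcripts of unfound start or end left out, an alternative chosen after seeing the data, inclusion averaged 98.3%.
In Ptbp1 the matching exon was included at 85.2% in replicate 2 and 100% in replicate 1. Transcripts without it held 65.8 reads in replicate 2 and were listed at 0 in replicate 1, where the floor is 3 reads; the kallisto-format table gave 79.2% and 98.5%. The Ptbp1 exon of 78 bases, whose inclusion makes the longer protein, stood at 48.2% in replicate 2 and 30.3% in replicate 1, and at 64.2% and 69.9% by kallisto, so its share was not settled.

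The brain form of the C-terminal exon was more abundant than the muscle form in Rbfox1 and Rbfox2, in both animals and both tables. In Rbfox1 the 40-base exon was included at 97.5% in replicate 2 and 96.9% in replicate 1, and the 43-base exon at 2.55% and 3.06%. The kallisto-format table gave the 43-base exon of Rbfox1 29.8% and 31.3%, so the size of the minor share differed between the tables while the order did not. In Rbfox2 the 40-base exon was at 72.6% in replicate 2 and 75.8% in replicate 1, and the 43-base exon at 11.4% and 9.21%. In Rbfox3 no annotated transcript was counted as skipping the coding 40-base exon, which 3 transcripts held. Those transcripts had 80.1 TPM in replicate 2 and 67.3 TPM in replicate 1, of 141.04 and 115.57 TPM for the gene. Rbfox3-205, with 42.59 TPM in replicate 2 and 36.64 TPM in replicate 1, was counted neither as holding nor as skipping the exon. Inclusion over the whole of Rbfox3 can therefore not be read from these values.
A Rbfox exon of 93 bases encodes part of the RNA-binding domain, and its skipping is known to give a protein that binds RNA poorly. This exon was included in Rbfox2 (chr15:77105577-77105669) at 91.1% in replicate 2 and 92.8% in replicate 1. In Rbfox3 its inclusion was 99.8% and 99.7%. No annotated transcript of Rbfox1 skips it, so skipping in Rbfox1 could not be measured. The exon is alike in Rbfox1 and Rbfox2 at 86 of 93 bases (92.5%), and in Rbfox3 it matches each at 69 of 93 (74.2%). Rbfox2-207, at 8.05 TPM in replicate 2 and 5.82 TPM in replicate 1, gave all the TPM that held the 43-base exon of Rbfox2. Transcripts that skip its 93-base exon had 8.05 and 5.91 TPM, nearly all of it from Rbfox2-207. These Rbfox2 shares thus rest on the same transcript, with 169 and 137 reads, and are not independent.

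Among the other genes, the Elavl4 exon of 39 bases, in the stretch between RNA-binding domains, was included at 94.5% in replicate 2 and 95.4% in replicate 1. Alternative forms of a Celf4 exon that begin at the same base were included at 86.8% and 86.7% (144 bases) and at 76.9% and 73.3% (84 bases), against the same skipping transcript. Each of these figures leaves out the other form, so they are not shares of the gene. In TPM, the 144-base form had 101.5 in replicate 2 and 104.9 in replicate 1. The 84-base form had 51.5 and 44.1, and the skipping transcript 15.5 and 16.05. The Srrm4 exon of 16 bases was included at 4.35% in replicate 2 and 8.57% in replicate 1, on 4.92 and 10.8 reads, too few to give its share firmly. A 65-base exon of a noncoding Nova1 transcript stood at 16.7% and 23.1%, and at 41.6% and 48.8% by kallisto. Of the 17 exons, 11 had lengths that are not a multiple of 3, among them the 34-base exons of Ptbp1 and Ptbp2 and the 40-base and 43-base exons of Rbfox2.

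**Figure D5:**
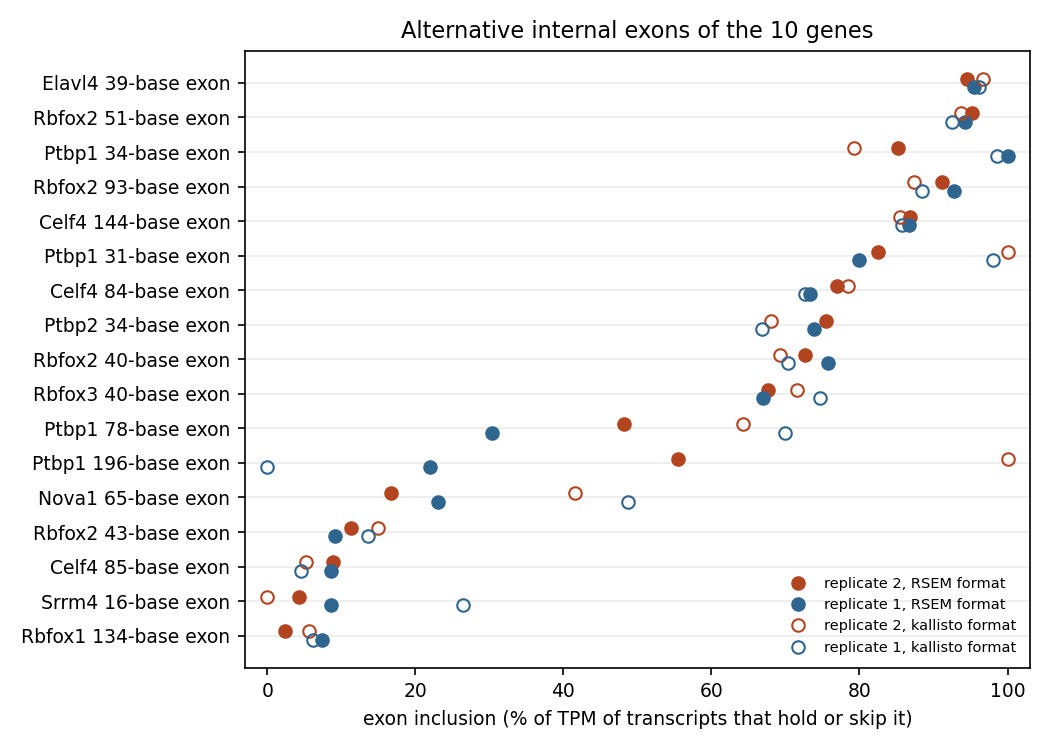
Inclusion (% of TPM) of the 17 alternative internal exons of the 10 genes, with replicate 2 above replicate 1, filled from the RSEM-format and open from the kallisto-format table. The Rbfox3 exon of 40 bases shown here is a noncoding one near the 5′ end; most pairs lie close, and those of the Ptbp1 exons of 196 and 78 bases lie far apart.

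Exons in 12 genes known as targets of these regulators were read in the same way. All 12 genes were at 1 TPM or more, with a median level of 49.2 TPM, and none was called between the animals, beside 1.22% of all tested genes. Snap25, a vesicle fusion protein, was highest at 1318 TPM in replicate 2 and 1167 TPM in replicate 1, followed by Dlg4, the postsynaptic scaffold PSD-95, at 316 and 290.5 TPM, and Grin1, the obligatory NMDA receptor subunit, at 175 and 142 TPM. Of 280 internal exons, 43 in 10 genes met the same criteria. The short exon of the kinase Src (chr2:157458843-157458860, plus strand) is shown because regulators of the list are known to act on it: Ptbp1 represses and Srrm4 promotes this neuronal exon.
Src 18-base exon: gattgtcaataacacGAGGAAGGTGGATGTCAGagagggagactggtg

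The Src exon was included at 88.4% in replicate 2 and 76.2% in replicate 1 (82.3 ± 8.64%, SD, n = 2). In the RSEM-format table this was the widest gap between animals among the described target exons. By kallisto the Src exon was at 88.9% and 81.6%, a narrower gap than that of the Dlg4 165-base exon, at 73.5% and 51.6%. Snap25 uses either of 2 neighbouring exons of 118 bases: the downstream one, which is the adult form, took 83.8% in replicate 2 and 83.7% in replicate 1, and the upstream one 16.2% and 16.3%. In Grin1 the 63-base exon of the extracellular part was included at 16.8% in replicate 2 and 17.1% in replicate 1, and the 111-base exon of the C-terminal part at 55.1% and 53.0%. In Agrn, the synapse organizer agrin, the 24-base exon that Nova proteins promote was at 75.7% and 67.1%. The 33-base exon beside it was at 42.5% and 41.3%, and the 12-base exon of the heparin-binding site at 71.6% and 65.1%. By kallisto the 24-base exon was at 64.3% and 61.4%, and the 33-base exon at 47.1% and 51.2%. Agrn-207, at 8.34 TPM in replicate 2 and 7.05 TPM in replicate 1, has a 793-base exon that spans both. It was counted neither as holding nor as skipping the 24-base and 33-base exons. The 63-base exon of Nf1, a Ras regulator, which Hu and Celf proteins are known to block, was included at 74.4% in replicate 2 and 73.2% in replicate 1, against 56.3% and 60.0% by kallisto.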

How the data were processed

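Total RNA of the left cortex of 2 mice was sequenced, and the 2 libraries, of 1 group, were described without a test between groups. Per the file headers, the authors deposited RSEM-format gene and transcript tables with expected counts, TPM, FPKM and the percent each transcript takes of its gene, and a kallisto-format table with estimated counts and TPM. Per the deposited description, the genome build was mm10 and the annotation M21; for the aligner, versions and strand setting, nothing is given in the sources used here. Deposited TPM are shares of all entries, so abundant short RNAs lower those of other genes; the median log2 TPM ratio between the libraries was 0.13.

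The members and lists were chosen with earlier results of these data known. Named genes were the 10 members, in each list (other family genes, other splicing regulators, known targets) the 3 of highest mean TPM and those called between animals; others (Plppr3, markers, Celf1, Elavl1, Srrm3, Esrp1, Esrp2, Mbnl3, Src, Agrn, Nf1, Gphn, Unc13b, Dab1, Rest) were named after their values were seen or for a ratio. Markers of neurons, astrocytes, oligodendrocytes, microglia, endothelium, striatum, thalamus and hypothalamus, choroid plexus, and cerebellum and olfactory bulb were read as lists. The exons of 1 target gene are not reported here.

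Expected counts were rounded to whole reads, scaled by TMM (edgeR 4.0.16, R 4.3.3) and given 0.5 added reads. Genes with at least 10 reads in 1 library were tested. Clopper-Pearson intervals of the read split (SciPy 1.17.1) leave out all but counting error, and without molecular identifiers reads do not stand for separate molecules; the floor of 3 reads was 0.0926 CPM in replicate 2 and 0.0884 CPM in replicate 1. The biological coefficient of variation was 6.34% over 18161 genes that had 10 or more reads in each library. Exons came from the M21 annotation, and sequences from its transcripts. Alternatives were DESeq2 1.42.0 size factors, total reads, spike-in totals, kallisto values, other minimums, folds and added reads, TPM over nuclear coding genes, TPM + 1, each replicate left out and, chosen after seeing the data, longest transcript lengths and complete transcripts only.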

Additional observations from a re-analysis of the deposited data

How the results depend on the processing

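No paired analysis was possible because the samples form 1 group. The cause was not tested for any change below. The median member level of 43.0 TPM was 58.9 TPM in the kallisto-format table, 98.5 TPM when TPM was taken over nuclear protein-coding genes, and 41.6 to 44.3 TPM with 1 replicate left out. All 10 genes kept their place when ordered by FPKM, 6 by kallisto TPM, 6 with the length of the longest coding transcript and 1 by expected counts, which are not divided by length. The median difference of the members between animals was 0.12 with spike-in totals, and the number with unequal reads was then 5. Of all genes, 111 were called higher in replicate 2 and 126 higher in replicate 1; with at least 100 reads in 1 library the counts were 20 and 38, and with kallisto counts 188 were called higher in replicate 2. Inclusion of the Ptbp2 34-base exon was 67.4% by kallisto, 98.3% with complete transcripts only, and 73.9 to 75.4% with 1 replicate left out. The mean log2 ratio of Ptbp2 over Ptbp1 was 1.36 with the longest coding transcripts and 1.00 by kallisto, and the ratio was 0.84 to 1.08 with 1 replicate left out. Log2 ratios near 0 changed sign: that of Rbfox2 between animals, -0.01, was 0.03 with total reads and 0.08 with spike-in totals, and that of Elavl4, 0.00, was -0.02 with kallisto counts. With 2 animals the spread is known only roughly, and exon shares rest on annotated transcripts, not on junction reads, which were not used here.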

Other observations

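Other known targets held exons of intermediate or high inclusion. In Gphn, the inhibitory synapse scaffold gephyrin, an exon of 108 bases was included at 47.98% in replicate 2 and 47.4% in replicate 1. Exons of 57 and 42 bases were both at 52.0% and 52.6%. Gphn-202 held the first exon and Gphn-201 the others, so these values are a single split between transcripts. By kallisto the order was the other way, with 51.4% and 52.05% for the first and 48.6% and 47.95% for the others. In Unc13b, which primes synaptic vesicles, the exon of 57 bases was at 55.1% in replicate 2 and 49.96% in replicate 1. Dab1, the adaptor of reelin signalling, included its exons of 39 and 66 bases at 94.6% and 93.7% in replicate 2 and at 97.6% and 98.5% in replicate 1. By kallisto these were 82.8% and 83.0% in replicate 2 and 87.2% and 91.5% in replicate 1. Skipping of the 66-base exon rested on 20.6 reads in replicate 2 and 5.16 in replicate 1. Dlg4 included a 66-base exon at 94.4% in replicate 2 and 94.1% in replicate 1. Rest, a repressor of neuronal genes whose transcript Srrm4 is known to splice, had 1.84 TPM in replicate 2 and 2.08 TPM in replicate 1, the lowest level of the 12 target genes.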
